A study of Mus musculus with 12 samples.

Results

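The integrated stress response and its main transcription factor ATF4 were described here in mouse kidney through 10 genes, Atf4, Atf5, Ddit3, Xbp1, Asns, Trib3, Chac1, Ppp1r15a, Sesn2 and Herpud1, taken by their symbols from a table of 23420 genes. All 10 genes were found in the table, and all 10 were among the 11664 genes with enough counts to be tested. RNA was measured by stranded mRNA sequencing in 12 kidneys of male C57BL/6J mice, with 4 kidneys in each of 3 groups. The control kidneys were taken at nephrectomy, and the other 8 kidneys underwent renal ischemia and were taken 24 h later. The labels give 20 min of clamping for every kidney, the controls included. For the ischemic kidneys the titles and the group field disagree: the 4 kidneys called set A here carry anaesthesia in their titles and "ISCHEMIA conscious" in their group field, and the 4 called set B carry conscious in their titles and "ISCHEMIA anesthesia" in their group field. Both sets were therefore compared under neutral names, and no direction was assigned to anaesthesia.

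In the integrated stress response, kinases that sense amino acid shortage, unfolded protein in the endoplasmic reticulum (ER), haem shortage or double-stranded RNA phosphorylate the translation factor eIF2. General protein synthesis is then reduced while the mRNA of ATF4 is translated more, and ATF4 together with partners such as CHOP (the product of Ddit3) switches on genes for amino acid supply, tRNA charging and feedback control. The unfolded protein response of the ER shares its PERK arm with this pathway and has 2 further arms, through XBP1 and ATF6, that raise chaperones and ER-associated degradation. The proximal tubule of the kidney uses much energy and is the segment known to be most injured by ischemia.

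The promoter sequences are shown first because ATF4 and CHOP bind a composite DNA element whose core, TGATGNAA, was looked for on both strands. RefSeq promoter windows (GRCm38.p6, from 250 bases before to 50 bases after an annotated start) were matched for 10 of 10 genes, and Atf5 had 2 windows. The core was present in 4 of the 10 genes, Asns, Chac1, Herpud1 and Trib3, against 4.51% of 27025 genes with a window. The 4 stretches below read 5′ to 3′ on the strand of the gene, with the match in capitals, and in Herpud1 the second run of capitals is a match to the second ER stress element described after them. They lie at chr6:7693214-7693243 (Asns, minus strand, 30 bases around the core), chr2:119350992-119351228 (Chac1, plus strand), chr8:94386179-94386428 (Herpud1, plus strand) and chr2:152344031-152344060 (Trib3, minus strand, the first 30 bases after the RefSeq start).
Asns: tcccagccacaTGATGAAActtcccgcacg
Chac1: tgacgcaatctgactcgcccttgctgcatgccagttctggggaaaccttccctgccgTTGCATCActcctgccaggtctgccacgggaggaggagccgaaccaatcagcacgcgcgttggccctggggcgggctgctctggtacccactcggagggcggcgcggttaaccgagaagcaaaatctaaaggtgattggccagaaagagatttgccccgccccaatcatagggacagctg
Herpud1: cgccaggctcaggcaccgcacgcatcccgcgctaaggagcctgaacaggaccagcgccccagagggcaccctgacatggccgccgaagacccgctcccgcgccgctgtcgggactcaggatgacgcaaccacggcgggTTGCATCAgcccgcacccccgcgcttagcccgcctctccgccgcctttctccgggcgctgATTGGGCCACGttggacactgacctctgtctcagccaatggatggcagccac
Trib3: agattagctcaggtTTACATCAgccgggcg
In Asns the core lay on the strand of the gene, 23 bases before the RefSeq start, and in the other 3 genes on the opposite strand. The GENCODE annotation used for the gene positions and lengths below places these starts elsewhere, 45 bases further upstream for Asns and 13 for Chac1, and 28 bases further downstream for Trib3 and 9 for Herpud1. By GENCODE the core of Asns therefore lies inside the gene and that of Trib3 outside it, the reverse of RefSeq, while in Chac1 and Herpud1 it is upstream of both starts. The ER stress element bound by ATF6 and XBP1, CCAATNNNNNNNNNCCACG, was in none of the 10 genes and in 0.14% of all genes with a window. The second form of this element, ATTGGNCCACG, was in Herpud1 alone of the 10, on the strand of the gene and 52 bases before the RefSeq start, against 0.04% of all genes. The shorter XBP1 core ACGTG, whose reverse complement can overlap the end of either ER stress element, as it does in Herpud1, was in the windows of Ddit3, Asns, Ppp1r15a and Herpud1, against 21.78% of all genes. A match describes letters in a window and not the binding of a factor.

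**Figure D1:**
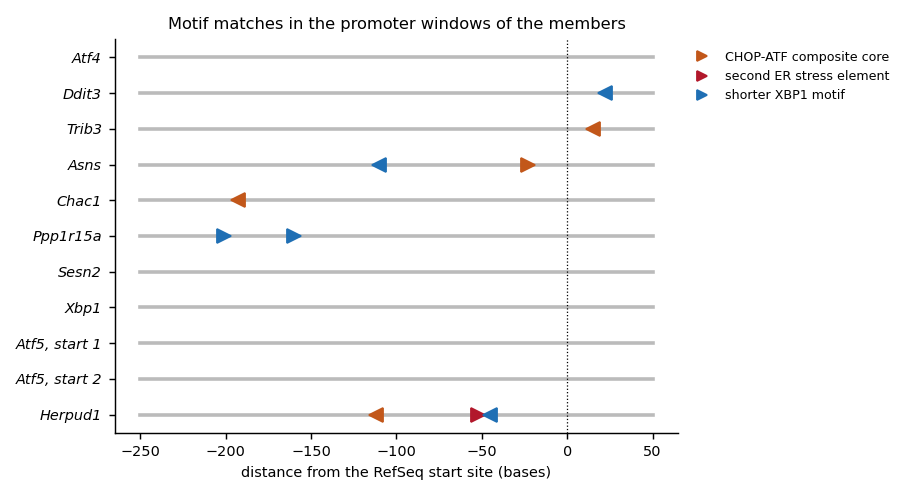
Positions of the 3 motifs found, in bases from the RefSeq start (dotted line), in the promoter windows of the 10 genes, with the arrowhead giving the strand relative to the gene. The composite core is in Trib3, Asns, Chac1 and Herpud1, and Asns and Herpud1 also hold the shorter XBP1 motif, which in Herpud1 lies at the second ER stress element.

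Each kidney had 15367342 to 44793350 counts in genes, so that 3 counts, taken as the limit of detection, corresponded to 0.0661 to 0.191 CPM (counts scaled to a library of 1000000). Reads were not tagged by molecule, and the limit therefore covers counting error alone. Low counts varied far more than counting error: among tested genes with a group mean of 10 to 50 counts, 30.1% of the single-kidney counts of control kidneys were exactly 0, as were 34.7% for set A and 31.3% for set B. No replicate pair agreed within sampling noise (the chi-square was at least 48.9 times its degrees of freedom). Nothing in the labels says more than that the kidneys are separate samples, so the p-values measure the spread between these kidneys. The labelled tissue was matched by its markers, with Slc34a1, the phosphate transporter of the proximal tubule, at 4921 CPM in the controls. The summed CPM of 4 proximal tubule markers was 5687 to 6243 in the controls and fell to 467.4 to 882.7 (set A) and 286.0 to 1028 (set B), and all 4 were lower in both sets. Those of the thick ascending limb summed to 1585 to 1681 CPM in the controls, 269.3 to 374.1 (set A) and 255.6 to 737.5 (set B), with Slc12a1 lower (mean 1512 CPM to 179.5 and 256.1) and Umod not past the test. Of 3 podocyte markers, Podxl rose from a mean of 70.1 CPM to 128.5 and 110.2. Atp6v1b1, 1 of 3 collecting duct markers, was lower in set A (55.6 to 26.9 CPM, and 34.8 in set B), and Pvalb, 1 of 2 of the distal convoluted tubule, was lower in set B (2.03 CPM to 0, and 0.0321 in set A). The 3 endothelial markers summed to 39.8 to 44.2 CPM in the controls, 21.7 to 31.7 (set A) and 21.1 to 38.9 (set B). The 3 injured tubule markers (Havcr1, Lcn2, Krt20) went from at most 0.240 CPM to between 47.1 and 92.0 (set A) and between 36.1 and 93.5 (set B). Markers of macrophages and other leukocytes summed to 43.6 to 66.1 CPM in the controls, 11.5 to 37.1 (set A) and 14.1 to 39.7 (set B) after ischemia. Csf1r carried most of that fall (mean 52.1 CPM to 13.6 and 10.6), Cd14 rose, and the other 2, Ptprc (2.96 CPM, then 3.84 and 4.39) and Cd68 (0.837, then 0.830 and 3.12), did not pass the test. Of 4 T and B cell markers Cd3e alone was seen, at 0.695 to 4.73 CPM in the controls and at 0 in the ischemic kidneys, and Cd8a, Cd79a and Ms4a1 were at 0 in every kidney. Of 2 neutrophil markers S100a8 was at 0 in every kidney and S100a9 at no more than 0.441 CPM. Hba-a1 and Hba-a2, the 2 of 4 haemoglobin markers that were matched to a row, were at 0 in every kidney, as were the fat markers. Of 4 adrenal markers Star alone was seen, at no more than 1.57 CPM. In whole kidney RNA, fewer cells of a type and less RNA per cell cannot be told apart, and the part of these shifts in the results below was not tested.

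The 10 genes are protein-coding and lie, in mm10 (GRCm38) coordinates, at chr15:80255184-80257541 (Atf4), chr7:44812256-44816658 (Atf5), chr10:127290774-127296288 (Ddit3), chr11:5520659-5525893 (Xbp1), chr6:7675169-7693254 (Asns), chr2:152337422-152344032 (Trib3), chr2:119351229-119354381 (Chac1), chr7:45522916-45526268 (Ppp1r15a), chr4:132492032-132510501 (Sesn2) and chr8:94386438-94395377 (Herpud1). Ddit3, Ppp1r15a, Atf5 and Herpud1 overlap annotated genes of the opposite strand, among them Mars, Tulp2, Nup62 and Il4i1, and Sesn2 overlaps a non-coding gene on its own strand. Whether the counting used the strand is not given in the sources used here, so reads from such overlaps could have been assigned to either gene or left out.

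Atf4, Asns and Atf5 rose and Herpud1 fell in both ischemia sets (edgeR quasi-likelihood F-test, Benjamini-Hochberg adjusted over all 11664 genes, threshold 0.05). In set A, 4 of the 10 genes thus passed the test, where 22.3% of all genes tested passed (10.5% higher and 11.7% lower). In set B the same 4 genes passed, where 22.8% of all genes passed (10.9% higher and 11.9% lower). DESeq2 called 5 of the 10 genes in set A and 7 in set B, where it called 25.0% and 25.6% of the genes to which it gave an adjusted p. These calls include Ppp1r15a in both sets and Trib3 in set B. Trib3, Chac1 and Ppp1r15a had controls at the limit of detection and passed the filter through ischemic kidneys alone. Their fitted changes are therefore no measure of size, and calls of them rest on the kidneys that let them in. The other 7 genes had a median log2 fold change of 0.77 (set A) and 1.30 (set B), against -0.016 and -0.018 over all genes tested. The 2 sets share the same control kidneys, so their changes are not independent of each other.

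**Figure D2:**
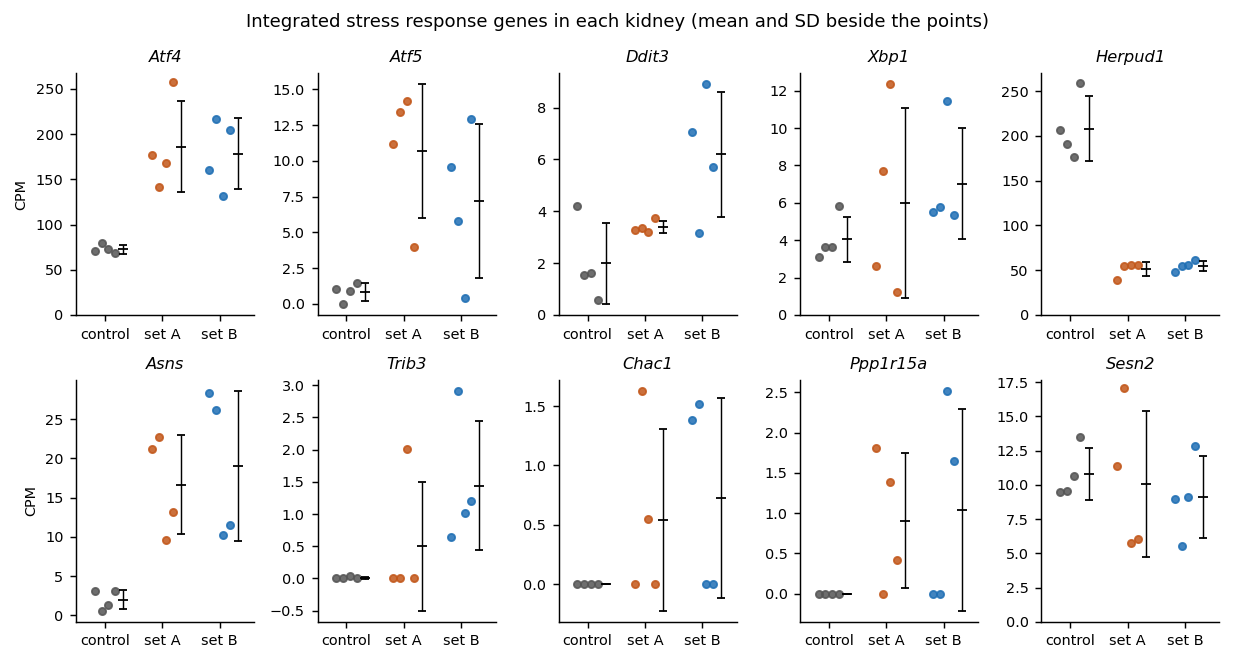
CPM of each of the 10 genes in the 4 control kidneys, the 4 kidneys of set A and the 4 kidneys of set B, on linear axes that differ between genes; bars give the mean and SD. Atf4 and Asns sit higher, and Herpud1 lower, in every ischemic kidney than in any control kidney, while Trib3, Chac1 and Ppp1r15a sit at or near 0 in the controls and in some ischemic kidneys.

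Atf4 encodes the transcription factor at the centre of the response, whose protein is mainly set by translation. Its level was 70.7, 79.3, 72.5 and 68.2 CPM in the 4 control kidneys, 176.8, 142.0, 168.4 and 257.9 in set A and 160.7, 216.7, 131.8 and 204.7 in set B. Every ischemic kidney was above every control kidney, and the controls were much closer to each other (SD 4.79, n = 4) than the ischemic kidneys (SD 49.99 and 39.4, n = 4 each). The mean was 2.56-fold higher in set A (log2 fold change 1.36, SE 0.18, edgeR adjusted p = 1.59e-05) and 2.46-fold higher in set B (1.30, SE 0.18, edgeR adjusted p = 2.79e-05).

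Atf5 encodes a related factor that is linked to mitochondrial stress. It was measured at 1.06, 0, 0.888 and 1.49 CPM in the controls, at 11.2, 13.4, 14.2 and 3.98 in the kidneys of set A and at 9.53, 5.82, 0.435 and 12.9 in those of set B. The kidneys of set A were all above the controls, whereas replicate 3 of set B, with 9 counts, lay within the control range. The mean was 12.5-fold higher in set A (log2 fold change 3.64, SE 0.92, edgeR adjusted p = 0.0122) and 8.37-fold higher in set B (3.06, SE 0.92, edgeR adjusted p = 0.03). In set B the exact two-sided permutation test of log2 CPM gave p = 0.114, where 4 against 4 kidneys allow no p below 0.0286. The set B call was also lost when control 1 or 3, set A 3, or set B 1 or 4 was left out, with edgeR adjusted p between 0.0502 and 0.0748, as it was with limma-trend (0.0551) and in a fit of the 2 groups alone (0.0986).

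Ddit3, the gene of CHOP, which promotes cell death in prolonged ER stress, did not pass the test in either set. Its level was at 4.22, 1.53, 1.62 and 0.575 CPM in the controls, at 3.27, 3.34, 3.19 and 3.73 in the kidneys of set A and at 7.04, 3.16, 8.90 and 5.71 in those of set B. Control kidney 1 lay above all of set A and above 1 kidney of set B, so the groups overlapped. The log2 fold change was 0.77 in set A (SE 0.76, edgeR adjusted p = 0.588) and 1.65 in set B (SE 0.76, edgeR adjusted p = 0.146), and DESeq2 gave an adjusted p of 0.0381 in set B.

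Xbp1, the factor activated when IRE1 splices its mRNA, stood at 3.12, 3.64, 3.63 and 5.83 CPM in the controls, at 2.64, 7.70, 12.4 and 1.205 in the kidneys of set A and at 5.53, 5.76, 11.5 and 5.33 in those of set B. The lowest and the highest of these kidneys both belonged to set A, and both sets overlapped the controls. The difference was not past the threshold in set A (log2 fold change 0.56, 95% interval -0.74 to 1.87) or in set B (0.79, -0.52 to 2.10). Gene counts do not separate the spliced from the unspliced form.

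Among the target genes, Asns rose in both sets. It encodes asparagine synthetase, a classical target of ATF4, and holds the composite core shown above near its annotated starts. The 4 controls had 3.07, 0.572, 1.35 and 3.03 CPM, set A had 21.1, 22.7, 9.58 and 13.2, and set B had 28.3, 26.2, 10.2 and 11.5. Every ischemic kidney was above every control kidney, and within each set 2 kidneys were well above the other 2. Asns was 8.30-fold higher in set A (log2 fold change 3.06, SE 0.51, edgeR adjusted p = 0.000276) and 9.49-fold higher in set B (3.25, SE 0.51, edgeR adjusted p = 0.000157).

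Trib3 encodes a pseudokinase that is induced by CHOP and ATF4 and restrains them. It had 0, 0, 1 and 0 counts in the control kidneys, 0, 0, 91 and 0 in those of set A and 19, 46, 21 and 19 in those of set B. All kidneys of set B were thus above the control kidneys, while in set A a single kidney, replicate 3, which is the deepest library, carried all the counts. With the controls at the limit of detection, the mean of set B (1.44 CPM) was at least 13.9-fold higher than the mean limit of 0.104 CPM in the controls, and at least 9.17-fold without set B 2. The edgeR adjusted p was 0.0895 for set B. For set A it was 0.171, and without replicate 3 of set A the fitted change there turned to -1.51 on the log2 scale. DESeq2 (adjusted p = 0.0132), limma-trend (adjusted p = 0.0294) and edgeR on the 2 groups alone (adjusted p = 0.0337) called Trib3 in set B. These calls rest on the kidneys through which Trib3 passed the filter and are no separate support for a rise.

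Chac1, which encodes an enzyme that breaks down glutathione, was at 0 in all 4 controls, at 0, 1.63, 0.551 and 0 CPM in set A and at 1.38, 1.52, 0 and 0 CPM in set B. Ppp1r15a encodes GADD34, the stress-induced partner of the phosphatase that removes the phosphate from eIF2. It was at 0 in all controls too, at 1.81, 0, 1.39 and 0.422 CPM in set A and at 0, 0, 2.515 and 1.65 CPM in set B. Neither gene passed the test, with edgeR adjusted p of 0.125 and 0.108 for Chac1 and 0.0732 and 0.0675 for Ppp1r15a in sets A and B. Against the limit of detection the means were at least 5.23-fold and 6.97-fold higher for Chac1 and at least 8.70-fold and 10.01-fold higher for Ppp1r15a. These bounds rest on few kidneys: for Chac1 they were 1.77-fold without set A 2 and 4.43-fold without set B 2, and for Ppp1r15a 5.8-fold without set A 1 and 5.29-fold without set B 3. DESeq2 called Ppp1r15a in both sets (adjusted p = 0.0237 and 0.0184).

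The zeros of Trib3, Chac1 and Ppp1r15a in the ischemic kidneys stand in a range of counts where about 3 in 10 values were 0 in these libraries, as given above.

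Sesn2 encodes sestrin 2, a stress-induced inhibitor of mTORC1, with a mean of 10.8 CPM in the controls, 10.04 (set A) and 9.09 (set B). Control values ran from 9.45 to 13.5 CPM, set A from 5.75 to 17.0 and set B from 5.50 to 12.8. Both sets overlapped the controls, and set A reached below and above them. The log2 fold change was -0.10 in set A (95% interval -0.95 to 0.75) and -0.25 in set B (-1.10 to 0.61).

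Herpud1 encodes an ER membrane protein that organises ER-associated degradation and is a known target of both ATF4 and the XBP1 and ATF6 arms. It stood at 206.9, 190.7, 175.9 and 258.9 CPM in the controls, at 39.1, 55.2, 55.2 and 55.5 in the kidneys of set A and at 47.9, 54.2, 55.9 and 60.8 in those of set B. Every ischemic kidney was below every control by a wide margin. The mean was 4.06-fold lower in set A (log2 fold change -2.02, SE 0.16, edgeR adjusted p = 3.11e-08) and 3.804-fold lower in set B (-1.93, SE 0.16, edgeR adjusted p = 6.22e-08). Its promoter window holds the composite core and the second ER stress element shown above. The 4 proximal tubule markers and Slc12a1 of the thick ascending limb also fell and Podxl of podocytes rose in both sets, with Atp6v1b1 lower in set A and Pvalb in set B, as given above, and their part in the fall of Herpud1 was not tested.

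**Figure D3:**
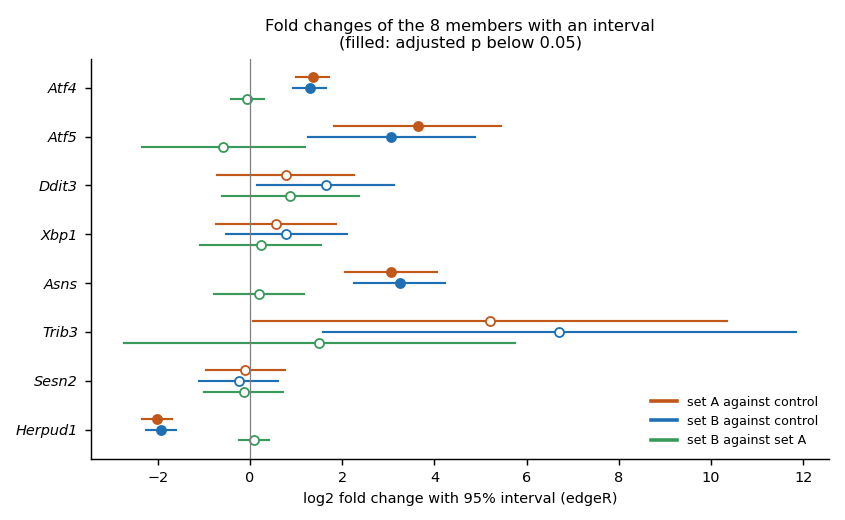
Log2 fold changes from edgeR with 95% intervals for the 8 genes for which an interval could be fitted, for each set against control and between the sets; filled points have an adjusted p below 0.05. Chac1 and Ppp1r15a are left out because every control kidney was at 0, and every interval of set B against set A spans 0.

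Compared per length (RPKM, the CPM divided by the exon length in kilobases), Herpud1 had the highest level of the 10 genes in the controls, at a mean of 89.2 (75.4 to 111.0), and Atf4 followed at 30.8 (28.9 to 33.6) with no overlap. After ischemia the order of these genes was turned, with Atf4 at 79.0 (60.2 to 109.4) and Herpud1 at 21.97 (16.8 to 23.8) in set A, and Atf4 at 75.7 (55.9 to 91.9) and Herpud1 at 23.5 (20.5 to 26.1) in set B. The next levels in the controls were Sesn2 at 3.10 RPKM, Xbp1 at 1.25, Ddit3 at 1.16, Asns at 0.733 and Atf5 at 0.431. Of these, Sesn2 was above Xbp1 in every control kidney (2.72 to 3.89 against 0.960 to 1.79), while Xbp1, Ddit3, Asns and Atf5 overlapped their neighbours. In set A, Asns (6.09 RPKM) and Atf5 (5.37) came next after Atf4 and Herpud1 and overlapped each other, and in set B they stood at 6.96 and 3.61 with Ddit3 at 3.62. Trib3, Chac1 and Ppp1r15a stayed the lowest in each group, at no more than 0.679 RPKM on average.

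Set B differed from set A in none of the 10 genes, where 0.00857% of all genes tested differed. In edgeR, 0 of the 10 genes had an unadjusted p below 0.05, and DESeq2 and limma-trend called 0 of 10. The log2 difference of set B from set A was -0.06 for Atf4 (95% interval -0.42 to 0.30), 0.09 for Herpud1 (-0.23 to 0.42) and 0.19 for Asns (-0.78 to 1.17). For Ddit3 (0.87, -0.61 to 2.36), Atf5 (-0.58, -2.35 to 1.2) and Trib3 (1.5, -2.73 to 5.74) the intervals were wider, and for Trib3 the interval rests on a set A in which 3 of 4 kidneys had no count.

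Within the 8 ischemic kidneys the genes did not move together in a way that could be shown. For the 7 genes above the limit of detection in all 8 kidneys, 21 pairs were compared by log2 CPM, with Pearson's r between -0.742 and 0.341 and no pair below 0.05 after adjustment (lowest Benjamini-Hochberg p = 0.699, exact permutation tests). Atf4 and its target Asns had r = 0.004 (rho = 0.095, exact permutation p = 0.992 and 0.84, adjusted 0.992 and 0.928). The lowest r was that of Atf4 with Xbp1 (r = -0.742, exact permutation p = 0.0333, adjusted p = 0.699, rho = -0.667, exact permutation p = 0.0831, adjusted p = 0.873), and it was -0.274 without the 2 kidneys farthest from the median of Atf4. Within the sets of 4 kidneys it was -0.824 (set A) and -0.811 (set B). Over the same kidneys, the genes most like Atf4 among 8513 genes compared were Csnk1d (r = 0.970), Smg1 (0.961) and Zfand5 (0.947). The nearest to Asns were Nedd8 (0.978), Lrpprc (0.938) and Ap1g1 (0.937), and the nearest to Herpud1 were Tbxas1 (0.959), Tbc1d22a (0.947) and Dusp11 (0.947). These are the highest of 8513 values each, over 8 points that share library and depth, and they are given as a description.

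The rest of the pathway was described through 9 further lists, which with the 10 genes hold 135 distinct genes tested. Of the 135, 51 passed the test in set A and 52 in set B, where 22.3% and 22.8% of all genes passed. The counts of each list below stand against 10.5% of all genes higher and 11.7% lower in set A, and 10.9% and 11.9% in set B. None of the 135 differed between set B and set A in edgeR (lowest adjusted p = 0.93), although 6 had an unadjusted p below 0.05, and DESeq2 and limma-trend called 0 of each list.

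**Figure D4:**
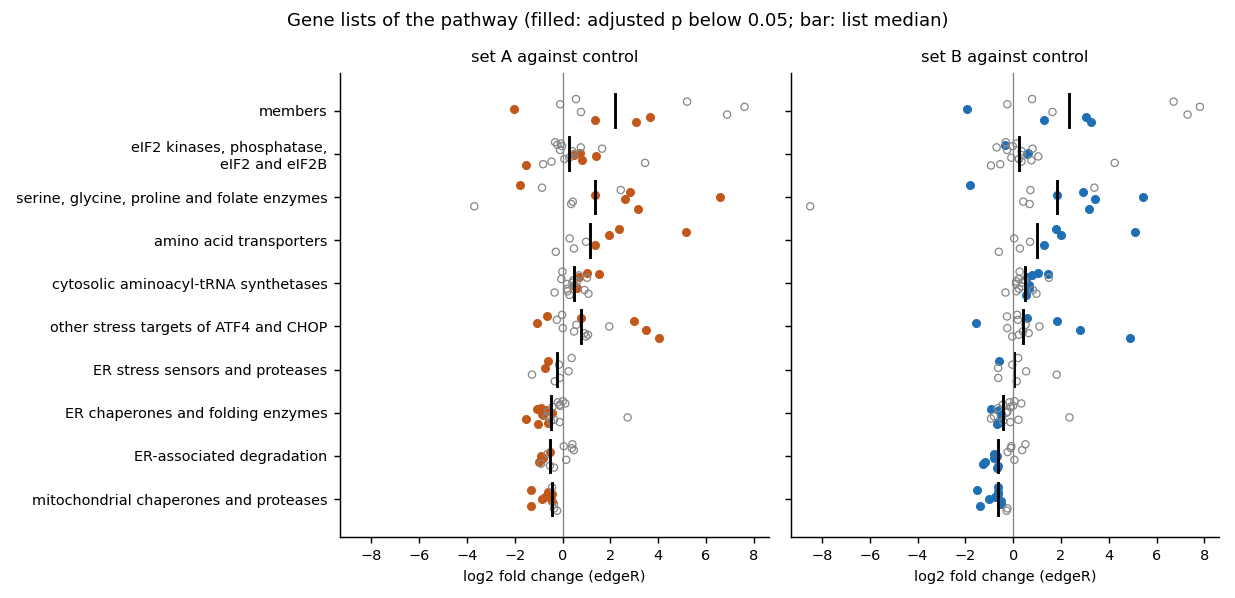
Log2 fold change from edgeR of every tested gene of the 10 lists, in set A (left) and set B (right) against control, with filled points for an adjusted p below 0.05 and a bar at the list median. The lists for amino acid enzymes, transporters and tRNA synthetases have their medians above 0, and those for ER chaperones, ER-associated degradation and mitochondrial chaperones below 0.

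Of 19 genes for eIF2 kinases, phosphatase subunits, eIF2 and eIF2B, 4 rose and 1 fell in set A (median log2 fold change 0.28), and 2 rose and 1 fell in set B (0.24). These counts are near the share of all genes that passed (22.3% and 22.8%). Eif2s1, which encodes the subunit that is phosphorylated, rose from 117.8 ± 13.5 CPM (SD, n = 4) to 196.3 ± 17.5 in set A (edgeR adjusted p = 0.00136) and 181.3 ± 40.7 in set B (edgeR adjusted p = 0.00546). Dnajc3, an ER co-chaperone that inhibits eIF2 kinases, fell in set A (log2 fold change -1.52, SE 0.37, edgeR adjusted p = 0.00587) and had -0.93 in set B (edgeR adjusted p = 0.0855). Eif2b3, a subunit of the exchange factor eIF2B, had 1.40 in set A (edgeR adjusted p = 0.013, lost without control 2 or set A 2, at 0.0502 and 0.0657) and 1.05 in set B (0.0611). Eif2ak4, the kinase GCN2 that senses uncharged tRNA, had 0.83 in set A (edgeR adjusted p = 0.0381) and 0.76 in set B (0.0583), and the call in set A was lost without control 2, 3 or 4 or set A 1, 2 or 3 (0.06 to 0.132), while one in set B was gained without control 1 or set B 2 (0.0204 and 0.025). The count for set A was 2 to 5 of 19 genes with 1 kidney left out, and it was 2 or 3 without control 2 or 4 or set A 2 or 3. For set B it was 1 to 3, and 1 without control 2 or 3, set A 2 or set B 1.

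Of 11 enzymes that make serine, glycine, proline and one-carbon units, 5 rose, 1 fell and 5 did not pass the test in each set, where 10.5% and 10.9% of all genes rose. Phgdh, Psat1, Mthfd2, Mthfd1l and Aldh18a1 rose and Shmt2 fell in both sets, with list medians of 1.35 (set A) and 1.81 (set B) on the log2 scale. Psat1, the second enzyme of serine synthesis, was at 7.24, 2.78, 3.20 and 4.86 CPM in the controls, at 11.3, 60.8, 28.7 and 26.7 in the kidneys of set A and at 33.8, 30.4, 52.9 and 21.2 in those of set B. All ischemic kidneys were above the controls (log2 fold change 2.82 and 2.94 in sets A and B, SE 0.42 each, edgeR adjusted p = 9.46e-05 and 6.37e-05). Mthfd2, a mitochondrial folate enzyme, had 0, 0, 8 and 1 counts in the controls, 158 to 414 across set A and 41 to 110 across set B (edgeR adjusted p = 0.000366 and 0.00146). With 3 of 4 controls at the limit of detection, Mthfd2 passed the filter through ischemic kidneys alone. Its call and its place among the 5 that rose rest on the kidneys that let it in, and its fitted change is no measure of size. Shmt2, the mitochondrial enzyme that turns serine into glycine, went from 720.3 ± 60.0 CPM (SD, n = 4) to 207.2 ± 30.5 in set A and 208.7 ± 61.0 in set B (log2 fold change -1.80 and -1.79, edgeR adjusted p = 2.04e-07 and 2.29e-07), and it was named after its values were seen. Mthfd1l, a mitochondrial synthetase of the same pathway, had a log2 fold change of 2.61 in set A (edgeR adjusted p = 0.0438) and 3.44 in set B (0.0104). Its call in set A was lost without control 1 or 4, set A 1, 2 or 4, or set B 1, 2 or 3 (adjusted p 0.0619 to 0.144), and in a fit of the 2 groups alone (0.0958). Aldh18a1, the first enzyme of proline synthesis, had 3.17 and 3.16 (edgeR adjusted p = 0.0367 and 0.037). Its call was lost in set A without control 3 or 4, set A 1, 2 or 3, or set B 2 (0.0545 to 0.0979), and in set B without control 2, 3 or 4, set A 1, 2 or 3, or set B 2 or 3 (0.0503 to 0.085), and with the 2 groups alone in both sets (0.0653 and 0.103).

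Amino acid transporters controlled by ATF4 rose in the same 4 of 8 tested genes in both sets, with none lower (0 also at an unadjusted p below 0.05, and 0 by DESeq2 and limma-trend) and list medians of 1.17 (set A) and 1.0 (set B) on the log2 scale. Slc7a11, the cystine transporter that feeds glutathione synthesis, was at 0, 0, 0.926 and 0.889 CPM in the controls, at 15.8, 18.3, 16.3 and 16.2 in the kidneys of set A and at 5.79, 30.0, 12.9 and 14.7 in those of set B. The 4 kidneys of set A were close to each other and those of set B spread over a 5-fold range, all above the controls (edgeR adjusted p = 0.000235 and 0.000268). Slc38a2, the transporter SNAT2 for small neutral amino acids, rose from 76.8 ± 16.2 CPM (SD, n = 4) to 195.9 ± 33.1 and 187.8 ± 57.0 in sets A and B (edgeR adjusted p = 3.88e-05 and 6.54e-05). Slc7a5, the leucine transporter LAT1, rose from 8.35 to 43.4 and 29.1 CPM (edgeR adjusted p = 0.000138 and 0.00167). Slc7a1, an arginine and lysine transporter, had log2 fold changes of 1.92 and 1.99 (edgeR adjusted p = 0.0242 and 0.0199). Its call in set A was lost without control 1 or 4 or set A 2 or 3 (0.0537 to 0.0712), and in set B without control 1 or 4 or set B 4 (0.0509 to 0.0904).

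Of 20 cytosolic aminoacyl-tRNA synthetases, which charge tRNAs with amino acids, 5 rose in set A and 7 in set B, where 10.5% and 10.9% of all genes rose, with medians of 0.49 and 0.50. None fell in edgeR, DESeq2 or limma-trend, and 0 were lower at an unadjusted p below 0.05. The change was not of 1 size: Vars, for valine, rose from 51.0 ± 4.57 CPM (SD, n = 4) to 146.6 ± 18.5 in set A and 141.0 ± 17.0 in set B (log2 fold change 1.52 and 1.47, SE 0.15 each, edgeR adjusted p = 2.68e-07 and 4.37e-07). Wars, for tryptophan, rose 2.04-fold and 2.03-fold (edgeR adjusted p = 0.00727 and 0.00772). Sars, for serine, rose in set A (log2 fold change 0.70, edgeR adjusted p = 0.00871), and its call in set B (0.57, 0.0313) was lost without control 1, 3 or 4 or set B 1, 2 or 3 (0.0507 to 0.123). Tars, for threonine, had 0.69 in set A (edgeR adjusted p = 0.0711) and 0.80 in set B (0.0337, lost without control 3 or 4 or set B 1 or 3, at 0.0537 to 0.114, and with the 2 groups alone, at 0.0647). Without each of these same 4 kidneys the count in set B was 4.

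Among 15 tested further stress targets of ATF4 and CHOP, Atf3, Eif4ebp1, Nupr1 and Sqstm1 rose in both sets, Klhl24 fell in both, and Vldlr fell in set A. The other 9 (set A) and 10 (set B) did not pass the test, and the list medians were 0.79 and 0.41 on the log2 scale. Atf3, a repressor induced by many stresses, was at 2.54, 2.11, 0.116 and 0 CPM in the controls, at 19.6, 19.2, 12.9 and 25.4 in the kidneys of set A and at 18.6, 33.4, 34.3 and 53.8 in those of set B. No ischemic kidney overlapped a control (edgeR adjusted p = 0.000805 and 0.000173). Eif4ebp1, the brake on cap-dependent translation, went from 4.08 ± 3.15 CPM (SD, n = 4) to 46.2 ± 6.81 in set A and 28.7 ± 6.61 in set B (edgeR adjusted p = 0.000229 and 0.00144). Nupr1, a stress-induced chromatin protein, rose from 4.43 to 35.1 and 15.9 CPM (edgeR adjusted p = 0.000182 and 0.00886). The log2 difference of set B from set A was -1.15 for Nupr1, -0.69 for Eif4ebp1, -0.49 for Klhl24 and 0.86 for Atf3. For Mthfd2 of the enzyme list it was -1.16. None of these differences passed the test (edgeR adjusted p of at least 0.93), as 0.00857% of all genes did. Klhl24, an adaptor of a ubiquitin ligase, fell from 140.0 to 66.2 and 47.0 CPM (edgeR adjusted p = 0.000146 and 2.28e-06).

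**Figure D5:**
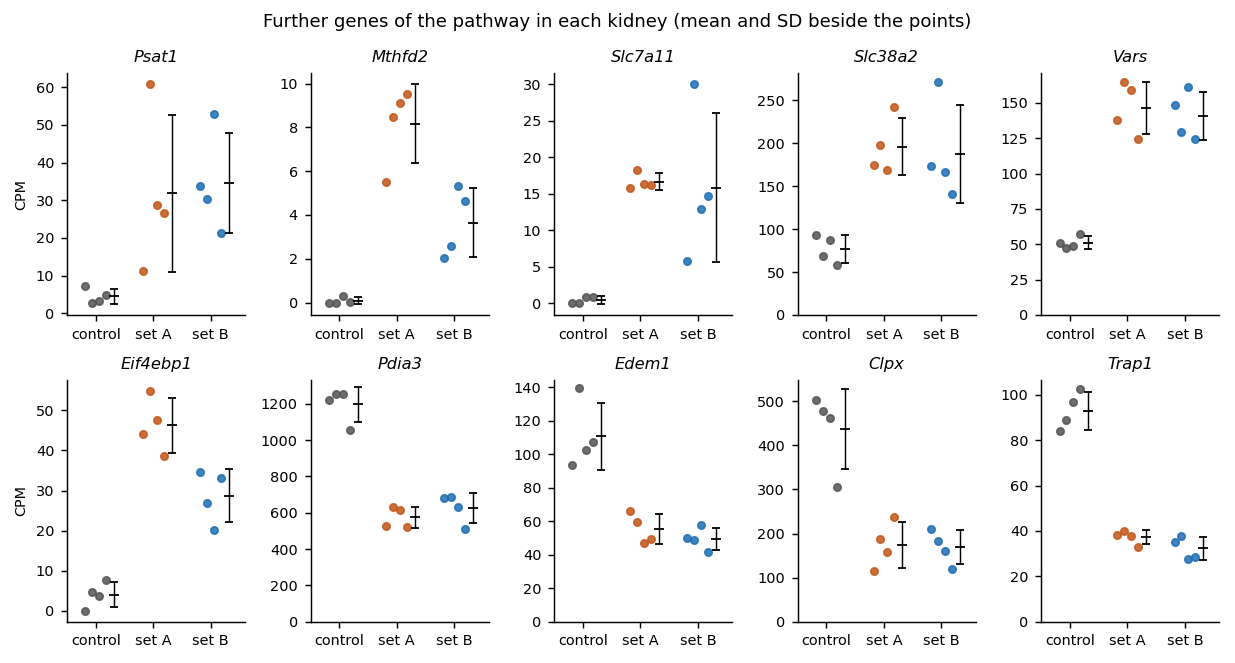
CPM of 10 further genes of the pathway in each kidney, with the mean and SD beside the points, on linear axes that differ between genes. Psat1, Mthfd2, Slc7a11, Slc38a2, Vars and Eif4ebp1 are higher, and Pdia3, Edem1, Clpx and Trap1 lower, in all 8 ischemic kidneys than in the 4 controls.

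On the ER side of the response no listed gene rose in edgeR. Of 8 tested sensors and proteases of the unfolded protein response, Mbtps1, the protease that cleaves ATF6, fell in both sets (155.1 to 100.9 and 103.2 CPM, edgeR adjusted p = 0.0019 and 0.00302). Creb3l2, an ER-bound factor related to ATF6, had -0.72 in set A (edgeR adjusted p = 0.0258) and -0.63 in set B (0.052). Its call in set A was lost without control 1, 2 or 4 or set A 2 (0.0525 to 0.0847), and one in set B was gained without set A 2 or set B 3 (0.0293 and 0.0339). The count was therefore 1 in place of 2 in set A without those 4 kidneys in turn, and 2 in place of 1 in set B without set A 2 or set B 3. It was also 2 in set B without control 1, where Atf6b, a relative of ATF6, passed the test (edgeR adjusted p = 0.0465). List medians were -0.24 and 0.05, and at an unadjusted p below 0.05 in edgeR 1 gene of the list was higher in set A and 0 in set B, with 0 called higher by DESeq2 or limma-trend.

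Of 21 ER chaperones and folding enzymes, 9 fell in set A and 6 in set B (medians -0.49 and -0.42). None rose in edgeR, where 0 genes in set A and 1 in set B were higher at an unadjusted p below 0.05, and DESeq2 called 1 gene higher in set B. Pdia3, a disulfide isomerase of glycoprotein folding, fell from 1223, 1256, 1253 and 1057 CPM in the controls to 522.5 to 629.2 (set A) and 509.5 to 685.8 (set B), with no overlap (edgeR adjusted p = 1.48e-06 and 7.21e-06). Its partner Calr, calreticulin, fell from 420.1 ± 51.5 CPM (SD, n = 4) to 205.7 ± 23.1 and 261.7 ± 60.9 (edgeR adjusted p = 6.98e-05 and 0.00339). Hspa5, which encodes the chaperone BiP that is commonly read as a sign of ER stress, was lower as well, at 601.1 ± 101.4 CPM in the controls, 331.3 ± 36.8 in set A (edgeR adjusted p = 0.00118) and 424.3 ± 129.2 in set B (edgeR adjusted p = 0.0469), and it was named after its values were seen. Its call in set B was lost without control 1, 3 or 4, set A 1, 2 or 3, or set B 1, 2 or 4 (0.0542 to 0.169), and with RLE size factors (0.0616), the filter at 1 CPM (0.0614) and the 2 groups alone (0.0872). Pdia4 fell in set A (edgeR adjusted p = 0.0087) and had -0.64 in set B (edgeR adjusted p = 0.0669, and 0.0459 and 0.0222 without control 2 and set B 2).

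Genes of ER-associated degradation, the machinery in which the Herpud1 protein works, fell in 4 of 13 tested in set A and in 7 in set B (medians -0.51 and -0.65). None rose by edgeR, DESeq2 or limma-trend, and in edgeR 0 were higher at an unadjusted p below 0.05 in either set. Edem1, which directs misfolded glycoproteins to degradation, fell from between 93.4 and 139.5 CPM in the controls to 46.9 to 66.4 across set A and 41.8 to 57.9 across set B (edgeR adjusted p = 0.000347 and 7.76e-05). Edem3, its relative, fell from a mean of 98.4 CPM to 56.3 and 56.1 (edgeR adjusted p = 0.00288 and 0.00275). Os9, a lectin of the same complex, had log2 fold changes of -0.89 and -0.68 (edgeR adjusted p = 0.00311 and 0.0199). Its set B call was kept in 8 of 12 fits without 1 kidney, and the losses include those without control 1 or 4 or set B 3 (0.0523 to 0.0725). Derl2, a membrane channel component, fell in set B (-1.26, edgeR adjusted p = 0.0125) and had -0.90 in set A (0.0728, and 0.0364 and 0.0409 without set B 3 and set B 4). The count in set B was 4 without control 1. The log2 fold changes of Herpud1 itself, -2.02 and -1.93, were lower than that of any of the 4 genes named here.

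Mitochondrial chaperones and proteases, a group linked to ATF5, were all below the controls on average, with 7 of 11 past the test in set A and 9 in set B (medians -0.44 and -0.62). Trap1, a mitochondrial relative of HSP90, fell from between 83.9 and 102.7 CPM to 33.1 to 40.02 across set A and 27.7 to 37.96 across set B (edgeR adjusted p = 1.34e-05 and 2.7e-06). Clpx, the unfoldase of a matrix protease, fell from 437.3 ± 90.1 CPM (SD, n = 4) to 174.7 ± 52.3 and 168.9 ± 38.1 (edgeR adjusted p = 9.31e-05 and 6.39e-05). Hspd1, which encodes the chaperonin HSP60, fell from 921.6 to 512.1 and 454.9 CPM (edgeR adjusted p = 0.00695 and 0.00159). Its cofactor Hspe1 had -0.73 and -0.77 (edgeR adjusted p = 0.033 and 0.024), and the call was lost in 8 of 12 fits in set A, without any 1 control or any 1 kidney of set A (0.0502 to 0.106), and in set B without control 1 or 3 or set B 3 (0.0507 to 0.0564) or with the 2 groups alone (0.0518). The count in set A was 3 or 4 without any single control or without set A 1, 3 or 4, and the count in set B was 5 without control 1. DESeq2 and limma-trend likewise called 0 genes of this list higher in either set, as edgeR did at an unadjusted p below 0.05.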

How the data were processed

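RNA from 12 mouse kidneys (4 control, 4 of ischemia set A and 4 of ischemia set B) was sequenced by the authors as 100-base single reads from TruSeq stranded mRNA libraries, checked with FastQC, mapped to mm10 with STAR and counted with HTSeq. Tool versions, the annotation release and the strand setting are not given in the sources used here. The authors deposited raw counts per gene, not normalized, and every column of the table was used. Groups were taken from the sample labels. For the ischemic kidneys the title and the group field disagree, which is why the sets carry neutral names.

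The count table was fitted in edgeR 4.0.16 (R 4.3.3) with its default low-count filter (minimum count 10, minimum total 15), TMM scaling and 1 fit of all 12 kidneys with a coefficient per group (common biological coefficient of variation 0.762). Two-sided quasi-likelihood F-tests were adjusted by Benjamini-Hochberg over 11664 genes at a threshold of 0.05. Fold changes in the text are ratios of mean CPM, and log2 fold changes with their standard errors and 95% intervals come from the fit. Single genes were also compared by exact permutation tests of log2 CPM (prior count 2). RPKM used exon lengths of the GENCODE annotation of mm10, and promoter windows came from RefSeq. The edgeR procedure was also run on simulated negative binomial counts, with known changes set only in genes well above the limit of detection. Its outcome is not given here and does not cover genes near that limit. Alternatives were DESeq2 1.42.0, limma-trend (limma 3.58.1), RLE size factors, no filter, a filter of over 1 CPM in 4 or more kidneys, a fit of the 2 groups alone, a replicate block, and leaving out each kidney. Python 3.11.15, pandas 2.3.3, SciPy 1.17.1 and matplotlib 3.10.9 were used.

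The 10 genes and the lists were chosen with earlier results of these data known. From each list, at most 4 genes were named, those with the largest mean log2 fold change of the 2 sets among genes past the threshold in at least 1 set. The rule also took the 3 genes most like each of the 10 by Pearson r over the 8 ischemic kidneys (mean log2 CPM of at least 1), which are printed for Atf4, Asns and Herpud1. Shmt2, Hspa5, Phgdh, Sqstm1, Vldlr and Atf6b were named after their values were seen. The list genes Adm2, Bcl2l11, Creb3l3, Derl3, Fgf21, Slc43a1, Slc7a3, Stc2, Tnfrsf10b and Ube2j2 did not pass the filter. Adgre1, Hbb-bs and Hbb-bt, of the marker lists, were not matched to a row.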

Additional observations from a re-analysis of the deposited data

Results flagged for a closer look

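A sample stood apart from the other 3 of its group, by a gap to its nearest neighbour that took up more of the group's whole range than Dixon's 95% limit allows, in 7 of 127 groups checked, and chance alone flags about 5% of groups. Trib3 was at 0.0386 CPM (1 count) in control 3 and at 2.005 CPM in set A 3, with the other 3 kidneys of each group at 0. Xbp1 was at 11.5 CPM in set B 3, against 5.33 to 5.76 in the others. Herpud1 was at 39.1 CPM in set A 1, below the 55.2 to 55.5 of the others. Mthfd2 was at 0.309 CPM in control 3, against at most 0.0261 in the other controls. Control 4 was low for Tars (12.9 CPM, others 27.7 to 29.3) and for Pdia3 (1057 CPM, others 1223 to 1256).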

How the results depend on the processing

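The calls of Atf4, Asns and Herpud1 against control, and of Atf5 in set A, kept their direction and stayed past the threshold in all 7 alternatives and all 12 fits without 1 kidney. In set B, Atf5 stayed past it in 4 of 7 alternatives and 7 of 12 such fits. DESeq2 called 7 of the 10 genes in set B, and 25.6% of all genes to which it gave an adjusted p. The 7 include Trib3 and Ppp1r15a, whose controls were at the limit of detection. For the eIF2 list in set B, DESeq2 called 5 genes and the fit without a filter 1. For the ER sensors in set B, limma-trend, no filter and only the 2 groups each called 2. Genes differing between the sets numbered 1, and became 44 with DESeq2, 0 with limma-trend, 6 without a filter and 0 with only the 2 groups. Without 1 kidney they numbered 0 to 7 (3 without set B 2, 7 without set B 4). Other settings added single calls in set B for Eif2b3 (DESeq2 and the 1 CPM filter), Eif2ak4 (the same), Dnajc3 (2 groups alone) and Creb3l2 (limma-trend, no filter and 2 groups alone), and in set A for Tars (limma-trend) and Derl2 (2 groups alone). Counts without 1 kidney ran from 2 to 5 (eIF2 list), 1 to 3 (ER sensors) and 3 to 8 (mitochondrial list) in set A, and from 1 to 3 (eIF2 list), 4 to 8 (tRNA synthetases), 1 to 2 (ER sensors), 4 to 7 (ER-associated degradation) and 5 to 9 (mitochondrial list) in set B.

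Some log2 changes that were not past the threshold changed sign when 1 kidney was left out. In set A they ran from -1.51 to 6.77 (Trib3), -0.48 to 0.10 (Sesn2) and -0.06 to 0.88 (Xbp1). Between set B and set A they ran from -0.17 to 0.14 (Atf4), -0.06 to 0.40 (Asns), -0.23 to 1.93 (Chac1), -0.73 to 0.77 (Ppp1r15a), -0.36 to 0.24 (Sesn2), -0.11 to 0.85 (Xbp1) and -0.02 to 0.15 (Herpud1). Ppp1r15a also changed sign there with limma-trend (-0.51). The cause of these changes was not tested. The replicate numbers of the groups did not pair the kidneys: over 12 pairs the correlation of deviations was -0.055 to 0.045, and 2 of 12 kidneys correlated best with their own number. With the replicate block, 2491 genes were called in set A and 2531 in set B, with 4 and 3 of the 10 genes (Atf5 in set B had an adjusted p of 0.0604). The block also ended the calls of Aldh18a1 (0.0616 and 0.0587 in sets A and B) and Mthfd1l in set A (0.0909) and added Tars (0.039) and Derl2 (0.0449) in set A and Eif2ak4 in set B (0.0397), and the Ppp1r15a difference between the sets was -0.04. Library depth and the many zeros limit what can be read for Trib3, Chac1 and Ppp1r15a, which no fit with 1 kidney left out called in either set.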
